A study of Mus musculus with 3 samples.

Results

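The genes of glucose metabolism were examined in thymocytes, T cells that are still maturing in the thymus, from mice of 3 genotypes. The set holds 40 listed genes for gluconeogenic fructose bisphosphatases, glucose and lactate transporters, glycolytic enzymes, the PFKFB enzymes, pyruvate dehydrogenase with its kinases, and the pentose phosphate pathway. A gene was measured where a probe set named it alone, and where a gene had several such probe sets the brightest by its mean over the arrays was used. This gave 35 of the 40 genes, among 19938 named genes in all. Eno1, G6pdx, Gpi1 and Pfkfb1 were not analysed here, and Gapdh was carried by probe sets that name several genes.

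The series holds 1 array each of TCF-1-deficient thymocytes (TCF-1-/-, 8 weeks of age), β-catenin transgenic thymocytes (16 weeks) and WT thymocytes (12 weeks). TCF-1 is a DNA-binding factor through which β-catenin acts in Wnt signalling, and the study looked for targets of the pair, genes that are low in the first mutant and high in the second. The promoter that drives the transgene, the TCF-1 allele, the strain and the number of mice behind each array are not stated. Thymocytes were passed through a strainer with no sort stated, so each value is for the whole suspension.

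Values are deposited log2 intensities, and differences are in log2 units of one array minus another. Each genotype has 1 array, so no value has an error, no difference has a replicate check, and genotype, age and any other difference between the mice cannot be told apart. A gene is called higher or lower at 2-fold, a difference of 1, and this is a rule of size. Many deposited values are equal on different arrays to the last printed digit. Over all named genes, 36.4% were identical on the TCF-1-/- and WT arrays and 53.3% on the transgenic and WT arrays, so a difference of 0 is not a measured equality. Of the thymocyte markers, Cd3e, a chain of the T cell receptor complex, was at 13.05 on the TCF-1-/-, 13.34 on the transgenic and 13.42 on the WT array. The coreceptor genes that mark double-positive thymocytes were lower on the TCF-1-/- array: Cd4 was at 9.13 there, against 13.29 on the transgenic and 12.87 on the WT array (-3.74), Cd8b1 differed from WT by -2.10 and Cd8a by -1.45. Xist, the RNA that coats the silent X chromosome in female cells, was at 12.17, 4.86 and 12.49 in the same order. The transgenic array thus differs from both others in this marker of female cells, which cannot be told apart from the transgene.

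Glycolysis splits glucose into pyruvate in the cytosol, and pyruvate is then either reduced to lactate or passed to mitochondria through pyruvate dehydrogenase, which PDK kinases switch off. The pentose phosphate pathway draws on the same sugar phosphates to make NADPH and ribose for nucleotides. In the thymus, Notch and pre-T cell receptor signals at the double-negative stages are known to raise glucose uptake and glycolysis, while most CD4+CD8+ double-positive thymocytes are small resting cells.

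On the TCF-1-/- array, 3 of the 35 genes were higher and 3 were lower than on the WT array by at least 2-fold. Fbp1, Tpi1 and Hk2 were higher, and Pdk2, Ldhb and Pfkfb3 were lower. Over all 19938 named genes, 1.33% were higher and 2.62% were lower by this rule. Together the 6 genes are 17.1% of the 35, against 3.96% of all named genes. Of the named genes with a mean at or above the median gene (6.90), as 29 of the 35 have, 6.66% passed. That mean is over all 3 arrays, and on the WT array Fbp1 (6.48) and Hk2 (6.75) are below 6.90. Without Fbp1 the share is 14.7% of 34 genes. The genes were chosen with earlier results of these data known, so these shares are not a test. At 1.5-fold, 8 genes were higher and 4 lower. The 8 are 22.9% of the 35, against 4.04% of all named genes and 5.88% of the brighter ones. The 4 lower genes are 11.4%, between the 6.9% of all named genes and the 12.7% of the brighter ones. The median difference over the 35 was 0.06, and over all named genes it was 0. In the same comparison 9 of 10 double-positive markers were at least 2-fold lower and 8 of 9 DN3 and Notch-induced genes at least 2-fold higher. The part of cell types in the differences of the 35 genes was not tested. Fewer cells of a type and less RNA per cell cannot be told apart in these suspensions.

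**Figure D1:**
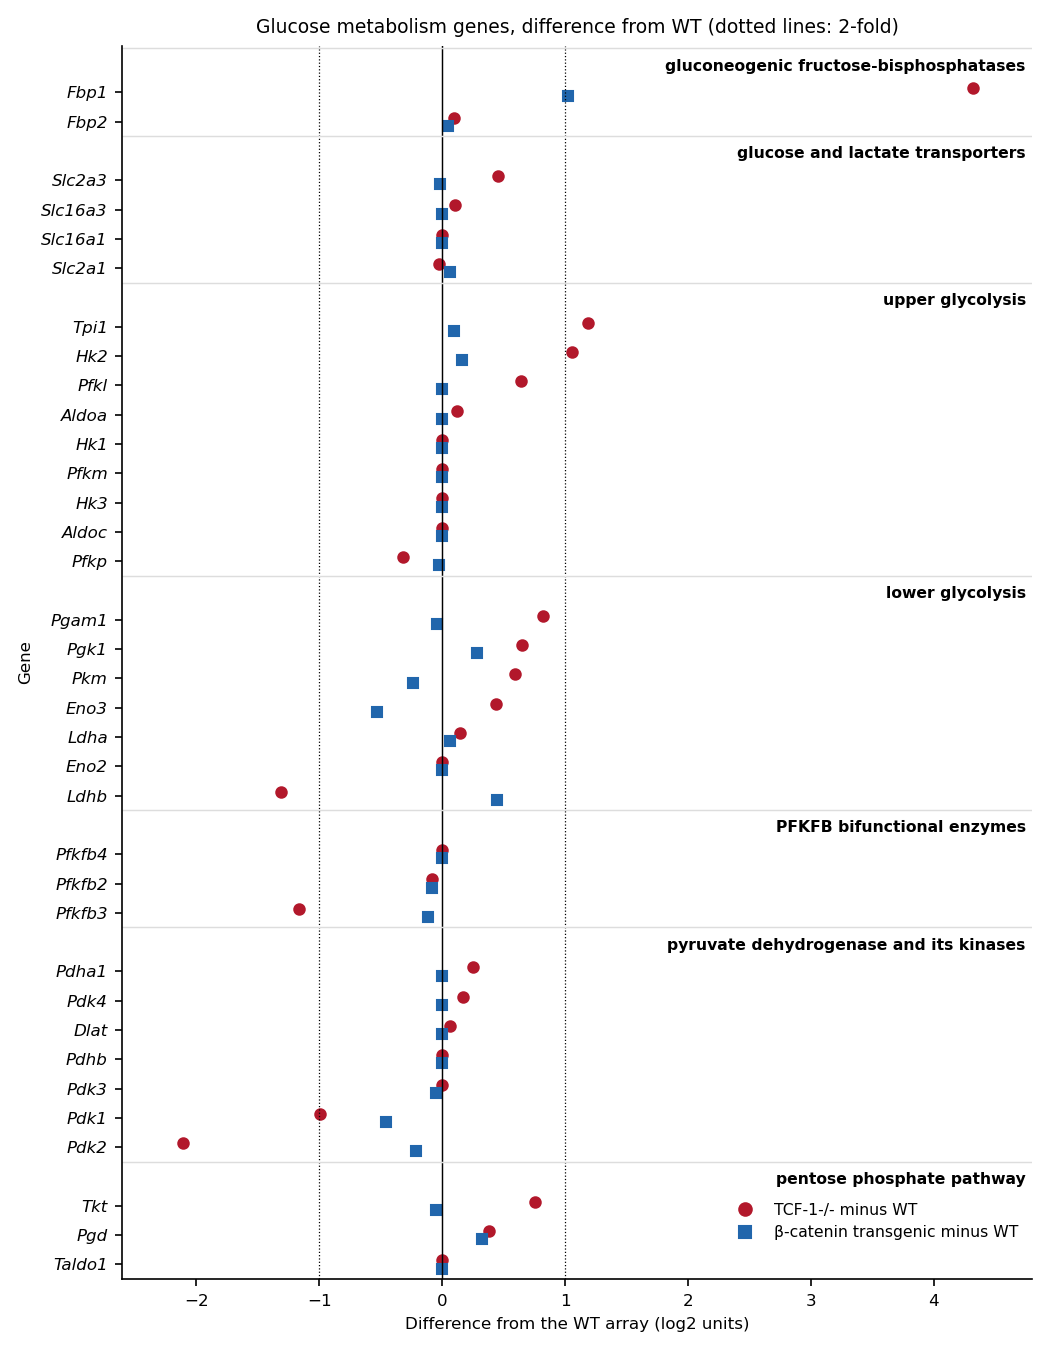
Difference of each of the 35 measured genes from the WT array in log2 units, grouped by role, with circles for TCF-1-/- minus WT and squares for β-catenin transgenic minus WT (1 array each, no error). Fbp1 lies at 4.32 and 1.02, and Pdk2 at -2.11 and -0.21. The dotted lines mark 2-fold.

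Fructose bisphosphatases remove a phosphate from fructose bisphosphate, the step of gluconeogenesis that opposes phosphofructokinase. Fbp1, the form of liver and kidney, was at 10.81 on the TCF-1-/-, 7.51 on the transgenic and 6.48 on the WT array. It was thus higher by 4.32 (20.0-fold) on the TCF-1-/- array and by 1.02 (2.03-fold) on the transgenic array. Of all named genes, the difference on the TCF-1-/- array was number 3 from the highest, and that on the transgenic array was number 29. On the WT array Fbp1 was dimmer than the median gene, and both folds are therefore uncertain in size. Some markers of other cells, named after their values were seen, had the same order of arrays: Ly86, a myeloid and B cell gene, was at 11.50, 8.04 and 7.48, and Cd79a, which encodes a signalling part of the B cell receptor, was at 9.52, 7.96 and 6.99. Others did not, such as the myeloid marker Itgam at 6.70, 7.81 and 6.84. Of 13 myeloid markers, 9 were above and 2 below WT on the TCF-1-/- array, and 6 and 2 on the transgenic array. Of 9 B lymphocyte markers, 9 were above WT on the TCF-1-/- array. On the transgenic array 7 of these were above and 2 below WT. Of all 19938 named genes, 7492 were above and 5197 below WT on the TCF-1-/- array, and 4884 and 4435 on the transgenic array. Of 6 measured hepatocyte markers, Apoa1, an apolipoprotein, was at 6.97, 6.67 and 6.41, Fgb was at 5.81 on the TCF-1-/- array and 5.76 on both others, and Alb, Ttr, Cyp2e1 and Ahsg had the same value on all 3 arrays. The part of such cells in the difference of Fbp1 was not tested. Fbp2, the muscle form, was at 6.30, 6.26 and 6.20 on the same arrays, below the median level on each. The 2 genes are neighbours on chromosome 13, and no other measured neighbour within 4 protein-coding genes on either side of Fbp1 was beyond 2-fold on the TCF-1-/- or the transgenic array.

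The 250 bases before the start of both genes are shown because the neighbours differed from each other. They are from RefSeq, build GRCm38.p6, minus strand, chr13:62888283-62888532 for Fbp1 and chr13:62858401-62858650 for Fbp2. Capitals mark a match, on either strand, to one of 6 motifs. CACGTG is the E-box, bound by MYC and its partners. ACGTG is a core of the hypoxia response element and lies within the E-box, and the other core of that element is spelled GCGTG. The TCF/LEF family, to which TCF-1 belongs, was searched for as CTTTGA. A further search for that family was made with CTTTGT. RBPJ, the DNA-binding factor of Notch signalling, was searched for as TGGGAA. The Fbp1 window holds none of them, and the Fbp2 window holds 1 E-box, 42 bases before the start.
Fbp1: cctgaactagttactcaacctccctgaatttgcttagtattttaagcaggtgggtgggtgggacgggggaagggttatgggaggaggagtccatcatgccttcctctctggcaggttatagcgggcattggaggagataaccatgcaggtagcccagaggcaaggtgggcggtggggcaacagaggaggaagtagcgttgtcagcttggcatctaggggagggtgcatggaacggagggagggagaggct
Fbp2: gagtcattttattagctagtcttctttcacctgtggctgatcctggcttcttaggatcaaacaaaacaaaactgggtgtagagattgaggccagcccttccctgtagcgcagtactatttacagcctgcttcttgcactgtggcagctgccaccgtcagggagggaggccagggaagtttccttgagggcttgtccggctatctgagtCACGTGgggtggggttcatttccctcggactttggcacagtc

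Transporters showed small differences. Slc2a1 encodes the glucose transporter GLUT1, and it was at 9.72 on the TCF-1-/-, 9.81 on the transgenic and 9.74 on the WT array. Slc2a3, the high-affinity transporter GLUT3, was at 9.10, 8.63 and 8.65, a difference of 0.46 on the TCF-1-/- array. Slc16a1 (MCT1), which carries lactate and pyruvate, was at 10.88 on each array. Slc16a3 (MCT4), a lactate exporter, was at 7.33 on the TCF-1-/- array and at 7.22 on both others. None of the 4 genes was beyond 1.5-fold in either comparison with WT.

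Of the 16 measured glycolytic enzymes, 6 were higher on the TCF-1-/- than on the WT array by at least 1.5-fold and 1, Ldhb, was lower. These are 37.5% and 6.25%, against 4.04% and 6.9% of all named genes. Of named genes at or above the median level, 5.88% were higher and 12.7% lower. Tpi1, triosephosphate isomerase, was at 10.88 on the TCF-1-/-, 9.79 on the transgenic and 9.70 on the WT array. Hk2, the inducible hexokinase that traps glucose in the cell, was at 7.81, 6.91 and 6.75. For each of these genes the TCF-1-/- array stands above both others, by 1.18 over WT for Tpi1 (2.27-fold) and by 1.06 for Hk2 (2.09-fold). On the WT array Hk2 was dimmer than the median gene, so that its fold, just past the rule, is uncertain in size too. Pfkl, the liver-type subunit of phosphofructokinase, was at 8.99 on the TCF-1-/- array and at 8.35 on both the transgenic and WT arrays (0.64). Of its relatives, Pfkp was at 8.84 on the TCF-1-/-, 9.14 on the transgenic and 9.16 on the WT array. Pfkm was at 8.51 on each, which is not a measured equality. Hk3, Aldoc and Eno2 had identical values on all 3 arrays, and all 3 genes were below the median level. Aldoa, the main aldolase outside liver and brain, was at 11.04 on the TCF-1-/- array and 10.92 on both others.

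In lower glycolysis, Pgam1, Pgk1 and Pkm differed in the same direction. Pgam1, phosphoglycerate mutase, was at 11.08 on the TCF-1-/-, 10.22 on the transgenic and 10.26 on the WT array (0.82). Pgk1, phosphoglycerate kinase, was at 11.33, 10.96 and 10.68 (0.65). Pkm, pyruvate kinase, was at 11.44, 10.62 and 10.85 (0.59), which is 1.51-fold and just past 1.5-fold. Other probe sets of these genes gave like differences between the TCF-1-/- and WT arrays, 0.80 for Pgam1, 0.65 for Pgk1 and 0.83 for Pkm. The Pgam1 sets list the same accessions, as do the Pgk1 sets, and 2 of the 3 sets of each gene have identical values, so they are not independent. Eno3, the muscle enolase, was at 8.25 on the TCF-1-/-, 7.27 on the transgenic and 7.81 on the WT array, within 1.5-fold of WT in both. Pgk1, Pdha1 and Pdk3 are on chromosome X, and none of them was beyond 2-fold of WT on the TCF-1-/- or the transgenic array.

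Hk1 has to be read with care. Its brightest probe set, at 12.74 on each array, lists 1 accession, which 16 other probe sets list under Hk1 together with Rpl17, a ribosomal protein gene. The other Hk1 probe set lists 8 accessions, and the same accession is among them, as in all 18 probe sets that name Hk1. That set was at 9.47 on the TCF-1-/-, 9.71 on the transgenic and 9.63 on the WT array, a difference of -0.16 on the TCF-1-/- array.

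**Figure D2:**
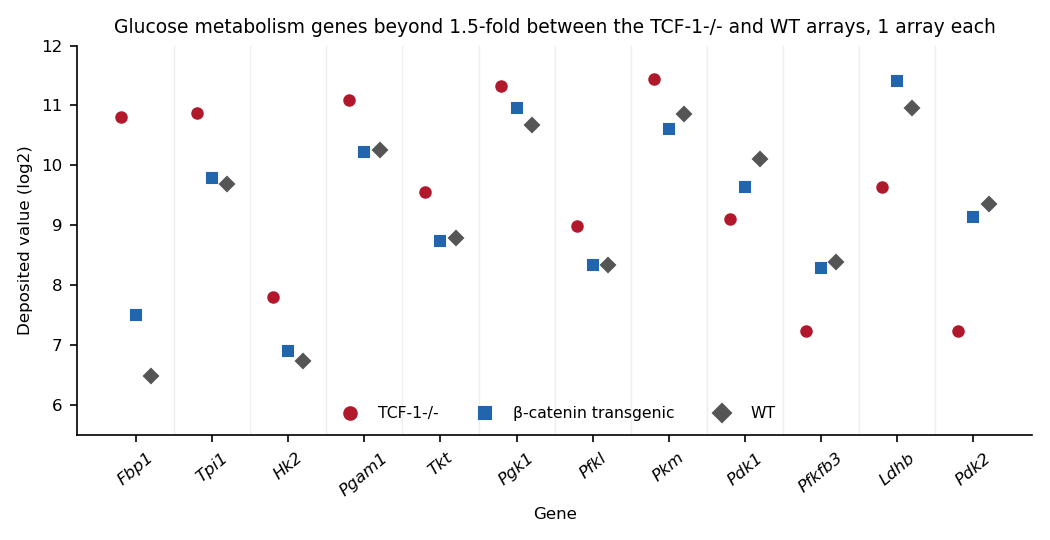
Deposited log2 value of the 12 genes beyond 1.5-fold between the TCF-1-/- and WT arrays, with 1 circle, square and diamond per gene for the TCF-1-/-, β-catenin transgenic and WT arrays (no error). For Tpi1 the TCF-1-/- array was at 10.88, against 9.79 on the transgenic and 9.70 on the WT array. The axis starts above 0 because the values are logarithms.

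Lactate dehydrogenase interconverts pyruvate and lactate, and its A and B subunits differed from each other. Ldhb, the heart-type subunit, was at 9.64 on the TCF-1-/-, 11.41 on the transgenic and 10.96 on the WT array. It was lower by 2.48-fold on the TCF-1-/- array (-1.31) and 0.45 higher on the transgenic array, which is within 1.5-fold. The other Ldhb probe set gave -1.07 and 0.51. Ldha, the muscle-type subunit, was at 12.13, 12.05 and 11.99 on the TCF-1-/-, transgenic and WT arrays. The difference of Ldha thus exceeded that of Ldhb by 1.46 between the TCF-1-/- and WT arrays, and was below it by 0.39 between the transgenic and WT arrays.

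The windows of both genes are shown for the same reason as those of the fructose bisphosphatases, with capitals as before. They lie at chr6:142507958-142508207 (minus strand) and chr7:46845554-46845803 (plus strand, the most upstream of 2 starts). The Ldha window holds 2 E-boxes, at 145 and 48 bases before the start, and a further ACGTG on the other strand at 34. The Ldhb window holds GCGTG once and no E-box. GCGTG does not separate the 2 genes, since the other Ldha window, not shown, holds GCGTG and also CTTTGA.
Ldhb: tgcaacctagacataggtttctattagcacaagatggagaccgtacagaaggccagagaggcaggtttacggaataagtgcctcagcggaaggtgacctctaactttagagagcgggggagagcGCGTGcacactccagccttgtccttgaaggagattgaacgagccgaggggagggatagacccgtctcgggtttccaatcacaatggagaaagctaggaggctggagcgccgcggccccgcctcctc
Ldha: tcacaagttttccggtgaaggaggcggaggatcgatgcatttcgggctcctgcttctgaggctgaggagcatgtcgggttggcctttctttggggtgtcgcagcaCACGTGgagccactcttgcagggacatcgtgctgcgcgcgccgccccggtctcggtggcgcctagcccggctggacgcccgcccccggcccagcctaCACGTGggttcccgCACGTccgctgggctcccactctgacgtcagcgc

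The PFKFB enzymes make and remove fructose bisphosphate of the regulatory kind, which activates phosphofructokinase. Pfkfb3, the isoform with the strongest kinase activity, was at 7.24 on the TCF-1-/-, 8.29 on the transgenic and 8.40 on the WT array. It was lower on the TCF-1-/- array by 2.23-fold (-1.16). Pfkfb2, the heart isoform, was at 7.71 on both mutant arrays and 7.79 on the WT array, and Pfkfb4 was at 6.88 on each array. Of the 3 measured genes, Pfkfb3 alone was beyond 1.5-fold. On the TCF-1-/- array 6.9% of all named genes were lower by 1.5-fold.

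Among pyruvate dehydrogenase genes, 2 of the 4 kinases were lower on the TCF-1-/- array by at least 1.5-fold, while the enzyme's own subunits differed by at most 0.25. By this rule 6.9% of all named genes were lower, and 12.7% of those at or above the median level. Pdk2 was at 7.24 on the TCF-1-/-, 9.14 on the transgenic and 9.35 on the WT array. This is 4.31-fold lower on the TCF-1-/- than on the WT array (-2.11), number 65 from the lowest of all named genes. The transgenic array was 0.21 below WT. Pdk1, the kinase induced by hypoxia, was at 9.11, 9.65 and 10.10, with differences of -0.99 on the TCF-1-/- and -0.46 on the transgenic array. The first of these is 1.99-fold, just under the 2-fold rule. Pdk3 was at 9.12 on both the TCF-1-/- and WT arrays and at 9.07 on the transgenic array. Pdk4, the kinase induced by fasting, was dim on every array, at 5.84, 5.67 and 5.67. Of the subunits, Pdha1 was at 10.41 on the TCF-1-/- array and 10.15 on both others, Dlat at 9.05 and at 8.99 on both others, and Pdhb at 8.60 on each.

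The windows of the 2 lower kinases lie at chr11:95041372-95041621 (minus strand) and chr2:71872974-71873223 (plus strand), each the most upstream of 2 starts. The Pdk2 window holds 1 E-box at 126 bases before the start. The Pdk1 window holds GCGTG at 78 bases and CTTTGT, on the other strand, at 150 bases before the start.
Pdk2: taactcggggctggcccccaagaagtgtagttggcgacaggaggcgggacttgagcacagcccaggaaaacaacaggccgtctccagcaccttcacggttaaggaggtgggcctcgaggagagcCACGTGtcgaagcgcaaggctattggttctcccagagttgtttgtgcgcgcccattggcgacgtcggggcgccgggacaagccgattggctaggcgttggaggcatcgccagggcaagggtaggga
Pdk1: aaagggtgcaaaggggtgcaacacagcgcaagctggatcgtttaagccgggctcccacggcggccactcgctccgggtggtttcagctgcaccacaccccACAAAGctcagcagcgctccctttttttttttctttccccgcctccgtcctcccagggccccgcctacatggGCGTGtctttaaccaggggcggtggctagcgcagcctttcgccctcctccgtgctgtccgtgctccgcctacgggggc

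Promoters were found in the RefSeq table for 39 of the 40 genes, in 59 windows of this length, since some genes have several starts. CACGTG is in 11.9% of the 59, against 6.02% of all 32851 windows. ACGTG is in 35.6% of the 59, against 16.6% of all windows, and GCGTG in 52.5%, against 28.2%. CTTTGA is in 13.6% of the 59, against 13.8%, CTTTGT in 15.3%, against 16.5%, and TGGGAA in 22.0%, against 21.6%. Base composition was not matched. Of the 8 genes higher on the TCF-1-/- array by at least 1.5-fold, 0 have CACGTG in a window, 4 have ACGTG, 3 have GCGTG, 0 have CTTTGA, 1 has CTTTGT and 1 has TGGGAA. Of the 4 lower genes, 2 have CACGTG (Pdk2 and Pfkfb3), 2 have ACGTG, 3 have GCGTG, 0 have CTTTGA, 2 have CTTTGT (Pdk1 and, in its other window, Pdk2) and 0 have TGGGAA. The counts for the 8 higher and 4 lower genes are per gene, with a match in any window of the gene. They cannot be set against the shares above, which are per window. Counted per gene over all 39 genes, the motifs, in the order above, are in 7, 17, 26, 8, 9 and 10 genes. A share per gene over all promoters is not given here. All of these are matches of letters and say nothing of binding.

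In the pentose phosphate pathway, Tkt, transketolase, was at 9.55 on the TCF-1-/-, 8.74 on the transgenic and 8.79 on the WT array, a difference of 0.76 (1.69-fold). Pgd, phosphogluconate dehydrogenase, which yields NADPH, was at 9.95, 9.89 and 9.57, so both mutant arrays lay above WT, by 0.38 and 0.32. Taldo1, transaldolase, was at 8.96 on each array. Thus 1 of the 3 measured genes was beyond 1.5-fold on the TCF-1-/- array and 0 on the transgenic array. On the TCF-1-/- array 4.04% of all named genes were higher by 1.5-fold.

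On the transgenic array, 1 of the 35 genes, Fbp1, was higher than on the WT array by at least 2-fold and 0 were lower. This is 2.86% of the 35. Over all named genes, 0.15% were higher and 0.0953% lower. The count was the same at 1.5-fold, where 0.487% of all named genes were higher and 0.667% lower. Of the 35 genes, 15 had the same value on both arrays (42.9%), and the median difference was 0, as over all named genes. After Fbp1 the largest differences were those of Eno3 (-0.53), Pdk1 (-0.46) and Ldhb (0.45).

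Set directly against the TCF-1-/- array, the transgenic array was higher by at least 2-fold for 3 of the 35 genes and lower for 2, where 2.45% of all named genes were higher and 1.57% lower. Pdk2 (1.89), Ldhb (1.76) and Pfkfb3 (1.05) were higher, and Fbp1 (-3.30) and Tpi1 (-1.09) were lower. With each array centred on its median, Pfkfb3 was at 0.99 and Eno3 at -1.03, so the first lost the call and the second gained it. These comparisons share arrays with those above and are not further evidence. No gene of the set was at least 2-fold higher on the transgenic and at least 2-fold lower on the TCF-1-/- array than on WT. Against WT, 0.15% of all named genes were higher on the transgenic array and 2.62% lower on the TCF-1-/- array. With shares so small, finding none among 35 genes says little. Ldhb differed in those directions by 0.45 and -1.31, and Fbp1 was higher on both mutant arrays.

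**Figure D3:**
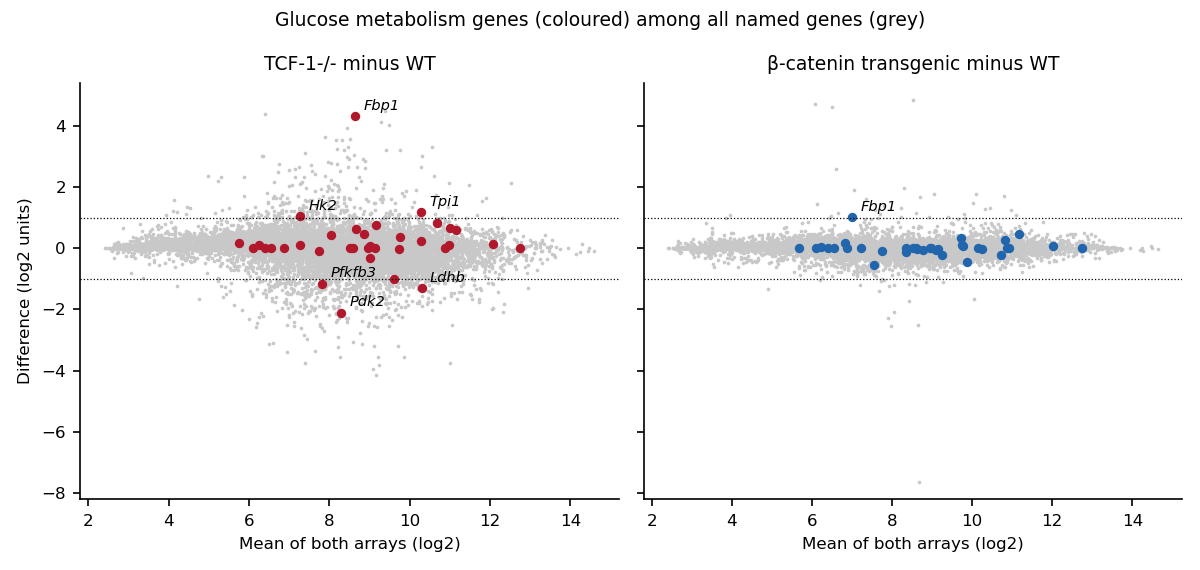
Difference from the WT array against the mean of both arrays, in log2 units, for all 19938 named genes (grey) and the 35 glucose metabolism genes (coloured), TCF-1-/- on the left and β-catenin transgenic on the right. On the left 6 coloured points lie beyond the dotted 2-fold lines and on the right 1, Fbp1.

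Other genes of the same pathways were counted in lists. Between the TCF-1-/- and WT arrays, 1.33% of all named genes were higher and 2.62% lower by 2-fold, and 4.04% were higher by 1.5-fold. Further isozymes and steps of glycolysis had 0 of 21 beyond 2-fold in either comparison with WT, and the largest difference was that of Pgam2, the muscle phosphoglycerate mutase (0.80 on the TCF-1-/- array). Of 20 other gluconeogenic and glycogen genes, 1 was lower on the TCF-1-/- array, Pgm2l1, a phosphosugar mutase (-1.03). Of 10 other pentose phosphate genes 0 were beyond 2-fold, and H6pd, which starts the pathway in the endoplasmic reticulum, had the largest difference (-0.61). Of 24 genes of pyruvate entry and the citric acid cycle, 0 were beyond 2-fold and 2 were higher by 1.5-fold, with a median of 0.12 on the TCF-1-/- array. Suclg2, a subunit of succinyl-CoA ligase, had the largest difference there (0.92).

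The serine branch leaves glycolysis at phosphoglycerate and feeds one-carbon metabolism. All 7 of its measured genes had higher values on the TCF-1-/- than on the WT array, with 5 beyond 1.5-fold, 0 beyond 2-fold and a median of 0.77. Of all named genes 4.04% were higher by 1.5-fold, and of those at or above the median level, as all 7 are, 5.88%. Phgdh, its entry enzyme, was at 10.09 on the TCF-1-/-, 8.95 on the transgenic and 9.12 on the WT array, a difference of 0.97, the largest of the list. On the transgenic array the median difference of the 7 genes was -0.17.

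Regulators of glucose metabolism included 3 of 17 genes at least 2-fold higher on the TCF-1-/- array and 0 lower. Of all named genes, 1.33% were higher and 2.62% lower by this rule. Epas1, which encodes the hypoxia-inducible factor HIF-2α, was at 9.10 on the TCF-1-/-, 7.65 on the transgenic and 7.61 on the WT array (1.49). Myc, which activates glycolytic genes in T cells, was at 12.23, 10.84 and 11.13 (1.10). Prkaa2, a catalytic subunit of AMP-activated kinase, was at 6.45, 6.87 and 5.41, higher than WT by 1.04 and 1.46, and below the median level on each array. Of 17 hypoxia-induced genes, 1 was lower on the TCF-1-/- array by 2-fold, Plod2, a collagen-modifying hydroxylase (-2.31), and 0 were higher. Plod2 was at 4.86 on that array, below the median level, so its fold is uncertain in size. Of the 17, 4 were above WT, 8 below and 5 identical, with a median of 0. Of all 19938 named genes, 7492 were above, 5197 below and 7249 identical. Of the 9969 at or above the median level, 3532 were above and 4566 below. By 1.5-fold 2 of the 17 were higher and 2 lower, against 4.04% and 6.9% of all named genes. On the transgenic array, Prkaa2 was the 1 gene beyond 2-fold in these 7 lists. Of all named genes, 0.15% were higher and 0.0953% lower on that array by 2-fold.

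**Figure D4:**
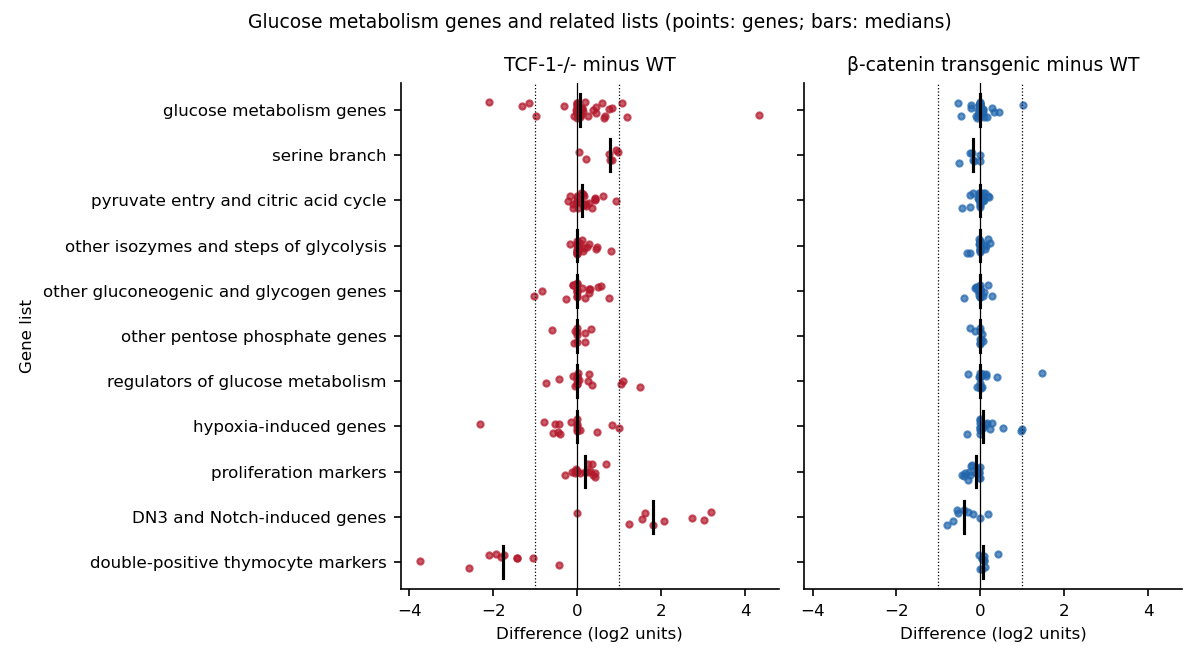
Difference from the WT array in log2 units for each gene (points) of the glucose metabolism set and 10 related or marker lists, TCF-1-/- on the left and β-catenin transgenic on the right, with bars for the medians. On the left the medians are 0.06 for the glucose metabolism genes, 0.77 for the serine branch, 1.79 for DN3 and Notch-induced genes and -1.78 for double-positive markers.

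Markers of cell types differed between the TCF-1-/- and WT arrays. In this comparison 1.33% of all named genes were higher and 2.62% lower by 2-fold, and 4.04% were higher by 1.5-fold. On the transgenic array 0.15% were higher by 2-fold. Of 10 double-positive markers, 9 were at least 2-fold lower on the TCF-1-/- than on the WT array, with mean levels of 10.52 on the TCF-1-/-, 12.44 on the transgenic and 12.35 on the WT array. After Cd4 the largest differences were those of Bcl6 (-2.58), Cd8b1 (-2.10) and Rag1 (-1.95). Of 9 DN3 and Notch-induced genes, 8 were higher by at least 2-fold, with mean levels of 10.20, 7.93 and 8.29, led by the Notch targets Heyl (3.19), Dtx1 (3.03) and Hes1 (2.74) and by Il2ra (2.06), the CD25 gene. Of 17 proliferation markers 0 were beyond 2-fold and 1, Mcm3, a replication licensing factor, was beyond 1.5-fold (0.69), with mean levels of 10.97, 10.64 and 10.81. B lymphocyte markers were higher for 3 of 9, Cd79a (2.53), Fcmr (1.86) and Ms4a1 (1.64), with mean levels of 7.94, 7.10 and 6.85. Myeloid markers were higher for 3 of 13, Ly86 (4.01), Cybb (1.55) and Lyz2 (1.12), with mean levels of 7.21, 6.77 and 6.58. Of 9 γδ T and NK cell markers 4 were higher, Blk (2.99), Gzma (2.65), Cd160 (2.12) and Sox13 (1.95), and 1, Klrb1c, was lower (-1.06), with mean levels of 7.93, 6.91 and 7.04. Of the 5 measured erythroid markers 1, Alas2, which encodes an enzyme of haem synthesis, was higher by at least 2-fold on both mutant arrays (1.14 and 1.11). The part of these cells in the differences above was not tested. Hepatocyte markers had 0 of 6 beyond 2-fold. Thymic epithelial and stromal markers had 0 of 10 beyond 2-fold.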

How the data were processed

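RNA was measured on 3 Affymetrix whole-transcript arrays, 1 per genotype. The authors deposited log2 values made with RMA and Partek, per the submitters' processing notes. No header states the log base, and the sources used here give no version, background correction or genome build. The values run from 1.73 to 14.8. The table holds 35556 probe sets, of which the platform's annotation names 21789 by 1 gene symbol and 1621 by several, and 12146 are unnamed here. The 21789 represent 19938 genes. Looked up by Entrez identifier in a GRCm38.p6 table, 0 symbols had changed. The deposited normalisation was kept.

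Differences were taken between arrays and called at 2-fold. With 1 array per genotype there is no test, and precision is limited by the number of arrays. The calculations were tested on simulated data. Alternatives were 1.5-fold and 3-fold, centring of arrays, removal of a loess trend (span 0.3), the mean over probe sets and a filter on dim genes. Another Hk1 probe set and leaving out X-linked genes were added after seeing the data. The genes and lists were chosen with earlier results of these data known. All measured genes of the set are named, and from related lists up to 4 genes beyond 2-fold in a comparison with WT, or else the 1 with the largest difference. From cell type marker lists, genes beyond 2-fold are named by the same rule, and others beside a result they move with. Promoter windows are printed for 3 pairs of relatives, fewer than the rule allows. The disrupted gene itself is not reported here. Python 3.11.15, pandas 2.3.3, NumPy 2.4.6, statsmodels 0.14.6 and matplotlib 3.10.9 were used.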

Additional observations from a re-analysis of the deposited data

Results flagged for a closer look

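Probe sets that name several genes were outside the measurement, and 2 genes of the set appear there with values above WT. Gapdh, the glycolytic dehydrogenase, is named by 25 such probe sets together with its relatives. Their median difference between the TCF-1-/- and WT arrays was 0.0517, and the 25 differences ran from 0.0021 to 0.09. Their values ran from 13.7 to 14.3 on the TCF-1-/- array and from 13.7 to 14.2 on the WT array, near the highest value of the table, 14.8. Hk1 is named by 16 probe sets that also name Rpl17, with a median difference of 0.2685 between the TCF-1-/- and WT arrays and differences from 0.16 to 0.30. These probe sets cannot be assigned to Hk1.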

How the results depend on the processing

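The counts at 2-fold were the same after removal of the loess trend, with the mean over probe sets and with the other Hk1 probe set. They were also the same without dim genes and without X-linked genes, and neither bears on the calls: Fbp1 and Hk2 are below the median level on the WT array and passed the filter through the mutant arrays, and none of the X-linked genes was beyond 2-fold. With arrays centred on their medians, the counts against WT were the same, and that of the transgenic against the TCF-1-/- array became 2 higher and 3 lower. Other thresholds changed them. For TCF-1-/- minus WT there were 12 genes at 1.5-fold (8 higher and 4 lower) and 2 at 3-fold (Fbp1, 1 higher, and Pdk2, 1 lower), against 6 at 2-fold. For transgenic minus WT there were 0 higher and 0 in all at 3-fold, against 1. For transgenic minus TCF-1-/- there were 11 at 1.5-fold (8 lower) and 3 at 3-fold (1 lower), against 5. Centring adds 0.13 to each difference of the TCF-1-/- from the WT array and moved the median of the set to 0.20, against 0.06 as deposited. Over single genes, centring moved 2 across the 2-fold line, Pfkfb3 (0.99) and Eno3 (-1.03), both between the transgenic and TCF-1-/- arrays. On dim genes such as Fbp2, Hk3 and Pdk4, intensity near background limits what can be seen.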

Other observations

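Txnip, which blocks glucose uptake and is induced by glucose, was chosen after its values were seen. It was at 10.86 on the TCF-1-/-, 11.68 on the transgenic and 11.61 on the WT array, a difference of -0.75 on the TCF-1-/- array. Egln3, a hypoxia-induced prolyl hydroxylase also chosen after its values were seen, was at 11.24, 10.79 and 10.25, so that both mutant arrays lay above WT, by 0.99 and 0.54. Of the 17 hypoxia-induced genes, 4 were above and 8 below WT on the TCF-1-/- array, and 9 and 1 on the transgenic array. Of all 19938 named genes these counts were 7492 and 5197, and 4884 and 4435. The order of the 3 arrays was counted over the set: the TCF-1-/- array was the highest for 18 of the 35 genes (51.4%) and the lowest for 6 (17.1%), and over all named genes it was the highest for 31.4% and the lowest for 22.5%. All 3 arrays had the same value for 9 of the 35 genes (25.7%), against 33.6% of all named genes.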
